A study of Mus musculus with 4 samples.

Results

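The transcription factor genes Tcf7, Lef1, Id2, Id3, Bach2, Runx3, Prdm1, Zfp683 and Hopx were followed in CD4 T cells of the brain and the spleen of mice with chronic experimental autoimmune encephalomyelitis (EAE), a model of inflammatory demyelination of the central nervous system. These 9 genes, of 33696 in the deposited tables, were taken by name, as genes with known roles in T cell memory and tissue residency. The choice was made with earlier results of these data known, so shares over all genes stand beside the counts for scale only. The mice were C57BL/6 animals labelled wild type, all immunised for EAE and all sampled at day 60, so no unimmunised group and no other time point enters the comparison. From each tissue, conventional CD4+ CD44+ GITR- T cells were sorted (CD44 is a marker of antigen-experienced T cells; GITR is abundant on regulatory T cells), 18718 brain cells and 38000 spleen cells were loaded, and 1 droplet-based 5' RNA library and 1 T cell receptor (TCR) library were made per tissue. How many animals went into each library is not stated in the labels. With 1 library per tissue, no difference below has a replicate check: the intervals are 95% intervals that cover counting error only.

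TCF1 (encoded by Tcf7) and LEF1 are related DNA-binding factors of naive and stem-like memory T cells, and BACH2 represses effector genes in the same cells. ID2 and ID3 bind E proteins and keep them off DNA; in T cells ID2 is known from effector cells and ID3 from long-lived memory and follicular helper cells. RUNX3, BLIMP1 (Prdm1), HOBIT (Zfp683) and HOPX are known from effector and tissue-resident T cells, where BLIMP1 and HOBIT repress genes of tissue exit.

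After filtering, 3951 brain cells with 41162623 UMIs (unique molecular identifiers, each standing for 1 captured transcript) and 7986 spleen cells with 60398914 UMIs were compared; the median cell held 9840 and 7190 UMIs. All 7 T cell markers of the fixed list reached 10 CPM in the higher tissue (CPM is a gene's UMIs per 1000000 UMIs of the group), and their summed level was 3629 CPM in the brain and 3969 CPM in the spleen. Clusters were named from marker lists. Cells of naive or central memory-like clusters, whose marker list includes Tcf7 and Lef1, made up 8.48% of brain and 29% of spleen cells, and regulatory-like cells 5.19% and 11%. Clusters that met no name held 44.4% and 27.7%. A paired receptor was found for 3131 brain cells (79.2%) and 6735 spleen cells (84.3%). The invariant TRAV11-TRAJ18 rearrangement of natural killer T (NKT) cells was carried by 123 brain and 662 spleen cells. The libraries shared 31 cell barcodes, 15 of them among kept cells, and 0 of these carried the same receptor in both.

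In the brain, 5 of the 9 genes were higher than in the spleen and 4 were lower, by the rule of a ratio of at least 1.5 either way with an interval that excludes 1. Over the 8638 genes measured at 10 CPM or more in the higher tissue, 9.81% were higher and 8.62% lower by the same rule, and the median log2 ratio was -0.09. The genes of naive and stem-like cells formed the lower group. Tcf7 (ENSMUSG00000000782) stood at 392 CPM in the brain and 723 CPM in the spleen, a brain to spleen ratio of 0.541 (0.532 to 0.551). Lef1 (ENSMUSG00000027985), at 216 and 554 CPM, had a ratio of 0.391 (0.382 to 0.4). Bach2 (ENSMUSG00000040270), at 179 and 295 CPM, had a ratio of 0.607 (0.591 to 0.624). With each cell weighted equally or thinned to 1 depth, the log2 ratio of Bach2 was -0.52 or -0.47, short of the 1.5-fold limit. The lowest ratio of the 9 belonged to Id3 (ENSMUSG00000007872), at 12.3 and 47.8 CPM, with 0.256 (0.233 to 0.282).

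The effector and residency genes formed the higher group, together with Id2. Id2 (ENSMUSG00000020644) reached 788 CPM in the brain and 477 CPM in the spleen, a ratio of 1.65 (1.63 to 1.68), so the ID genes differed between the tissues in opposite directions. Prdm1 (ENSMUSG00000038151), at 35.3 and 16.6 CPM, had a ratio of 2.13 (1.96 to 2.31). Zfp683 (ENSMUSG00000049410), at 30.9 and 16.5 CPM, had 1.87 (1.72 to 2.04). Runx3 (ENSMUSG00000070691), which also acts in the choice of the CD8 lineage, stood at 105 and 63.4 CPM with a ratio of 1.66 (1.59 to 1.73). Hopx (ENSMUSG00000059325), whose small homeodomain protein does not itself bind DNA, stood at 174 and 111 CPM with 1.56 (1.51 to 1.62).

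The ID genes and the BACH2 and BLIMP1 genes are the opposed pairs of the set, BACH2 being a known repressor of Prdm1. Their sequences upstream of the transcription start, from RefSeq (GRCm38.p6), are therefore shown. Of the 9 genes 8 matched an entry, and 4 of these, the ones printed, have 1 annotated start. Each window holds the 250 bases before the start, 5′ to 3′ on the gene's strand: Id2 chr12:25096093-25096342 (minus), Id3 chr4:136143572-136143821 (plus), Bach2 chr4:32417185-32417434 (plus) and Prdm1 chr10:44458749-44458998 (minus). Capitals mark matches, on either strand, to 4 motifs, where N was allowed to be any base. These were the E-box CANNTG bound by E proteins, TGANTCA as a loose form of the AP-1 and BACH motif, the TCF and LEF motif CTTTGA and the RUNX motif TGTGGT.
Id2: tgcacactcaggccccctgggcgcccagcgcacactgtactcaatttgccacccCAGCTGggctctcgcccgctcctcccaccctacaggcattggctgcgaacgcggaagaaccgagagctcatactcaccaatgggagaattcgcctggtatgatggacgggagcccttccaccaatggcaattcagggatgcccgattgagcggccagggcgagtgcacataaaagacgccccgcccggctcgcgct
Id3: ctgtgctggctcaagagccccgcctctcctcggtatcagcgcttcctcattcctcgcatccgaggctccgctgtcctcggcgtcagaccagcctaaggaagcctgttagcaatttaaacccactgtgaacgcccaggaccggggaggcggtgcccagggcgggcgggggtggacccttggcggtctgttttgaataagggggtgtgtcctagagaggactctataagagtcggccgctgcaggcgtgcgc
Bach2: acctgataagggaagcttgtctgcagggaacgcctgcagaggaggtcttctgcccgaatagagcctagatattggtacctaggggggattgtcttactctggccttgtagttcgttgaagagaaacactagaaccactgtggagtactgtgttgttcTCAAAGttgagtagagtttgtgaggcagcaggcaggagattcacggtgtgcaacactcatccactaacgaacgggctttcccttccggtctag
Prdm1: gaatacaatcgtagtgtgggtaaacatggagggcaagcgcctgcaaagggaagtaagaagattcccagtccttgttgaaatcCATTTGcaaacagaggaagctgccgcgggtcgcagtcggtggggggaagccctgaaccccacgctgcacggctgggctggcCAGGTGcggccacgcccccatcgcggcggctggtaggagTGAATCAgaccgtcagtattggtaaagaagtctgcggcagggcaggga
The Prdm1 window held 2 matches to the E-box and 1 to the loose AP-1 and BACH motif, which reads TGAATCA, with A at the open base N. The Id2 window held 1 E-box match, and the Bach2 window 1 TCF and LEF match, which reads TCAAAG on the printed strand. No match to these 4 motifs lay in the Id3 window, and none to the RUNX motif in any of the 4. Over 32817 windows of the same length, 66.2% held an E-box match, 6.75% an AP-1 and BACH match, 13.8% a TCF and LEF match and 14% a RUNX match. No matches overlapped. These matches describe letters, and binding was not measured.

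Depth differed between the libraries, so detection was compared after each cell was thinned at random to 3000 UMIs, which left out 226 brain and 533 spleen cells below that depth. Tcf7 was detected in 53% of thinned brain cells and 75.9% of thinned spleen cells (75% and 85.6% before thinning). Lef1 was detected in 36.5% and 64.3% (62.1% and 79.2%), Bach2 in 29.8% and 45% (53% and 63.5%) and Id3 in 3.33% and 11.1% (7.82% and 19.1%). In the other direction, Id2 was found in 68.2% and 39% (79.7% and 49.5%), Hopx in 33.4% and 23% (57.3% and 36.9%) and Runx3 in 24.6% and 16.5% (54.3% and 32.3%). Prdm1 was found in 9.5% and 4.44% (22.7% and 8.87%) and Zfp683 in 7.68% and 3.92% (16.9% and 7.16%). For each gene the tissue with the higher CPM thus also had the larger share of positive cells.

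A background for these shares came from 152 thinned B-like cells of the spleen library, left out of all other values (their median depth was 5442 UMIs). Among them Tcf7 was found in 6.58%, Lef1 in 10.5%, Id2 in 7.89%, Hopx in 8.55%, Prdm1 in 1.32% and Zfp683 in 0.658%, all below the share in either T cell library. Runx3 was found in 15.8% of the B-like cells, close to the 16.5% of spleen T cells. This comparison thus does not set the spleen share of Runx3 apart from background. Whether the B-like cells express Runx3 themselves was not tested. Over the spleen T cell clusters its level ran from 20.5 CPM (follicular helper-like) to 189 CPM (cytotoxic-like). Bach2 was found in 76.3% and Id3 in 25% of them. B cells express Bach2 and Id3 themselves, so these last shares give no background. Summed B cell markers stood at 106 CPM in the brain and 299 CPM in the spleen, with 1 of 7, Ighm, at 10 CPM or more. Their part in the Bach2 and Id3 ratios was not tested.

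The tissue ratios of Zfp683, Id2 and Prdm1 were larger without the NKT receptor cells. Cells with TRAV11-TRAJ18 were 8.29% of spleen cells yet held 72.9% of the spleen's Zfp683 UMIs, 41.1% of its Id2 UMIs and 35.6% of its Prdm1 UMIs. In the brain they were 3.11% of cells and held 18.1%, 6.13% and 3.17%. Among the remaining cells with a paired receptor (3009 brain, 6079 spleen), Zfp683 stood at 26.3 CPM in the brain and 3.66 CPM in the spleen, a ratio of 7.2 (6.12 to 8.51). Id2, at 745 and 308 CPM, had a ratio of 2.42 (2.37 to 2.47), and Prdm1, at 34.3 and 10.8 CPM, had 3.18 (2.87 to 3.54). The other 6 ratios ranged from 0.249 for Id3 to 1.73 for Runx3, and all 9 genes kept their call, against 10.4% of genes higher and 8.54% lower in these cells.

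Within the TRAV11-TRAJ18 cells themselves 1 of the 9 genes, Prdm1, met the rule, where 7.1% of all genes were higher and 14.3% lower. It stood at 35 CPM in the brain and 67.2 CPM in the spleen (0.52, 0.374 to 0.709). Id2 stood at 1512 and 2230 CPM there, a ratio of 0.678 (0.646 to 0.711) that falls short of the 1.5-fold limit. Both ratios lie on the other side of 1 from those of all cells. Zfp683 levels in cells with this receptor were 175 and 137 CPM (1.28, 1.1 to 1.49), and those of Tcf7 were 98 and 114 CPM, below its level in the whole library of either tissue.

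**Figure D1:**
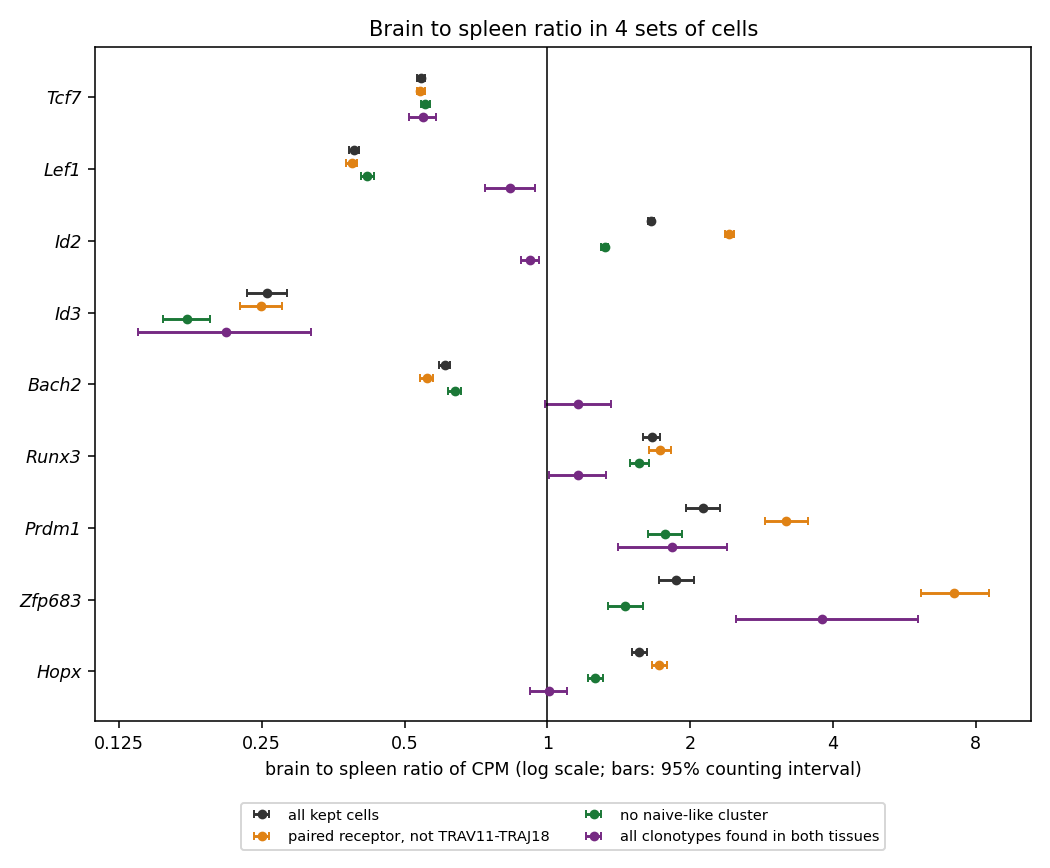
Brain to spleen ratio of CPM (log scale) for each of the 9 genes in 4 sets of cells, with 95% counting intervals; a ratio of 1 is marked by the line. The Zfp683 ratio is 1.87 in all cells and 7.2 without the NKT receptor, and the Lef1, Id2, Bach2, Runx3 and Hopx ratios of clonotypes found in both tissues lie between 0.833 and 1.16.

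Ratios were next taken within clusters of the same name, which were made in each library alone and with these genes among the input, so the levels are descriptions. Among naive or central memory-like cells (335 brain, 2312 spleen), Tcf7 stood at 990 and 997 CPM (0.993, 0.957 to 1.03) and Lef1, a leading gene of these clusters, at 1027 and 1063 CPM. Bach2 had a ratio of 1.21 there. Id2 was the only one of the 7 genes that reached 10 CPM to meet the rule, at 149 and 75.3 CPM (1.98, 1.78 to 2.19; 7.77% of genes were higher and 7.27% lower). Without these clusters, 6 of the 9 genes still met the rule, against 8.49% of genes higher and 10.8% lower. The 3 that no longer did were Id2 (1.32), Zfp683 (1.46) and Hopx (1.26); Tcf7 was 0.553, Lef1 0.417, Id3 0.174, Bach2 0.638, Runx3 1.56 and Prdm1 1.77. The naive-like share itself differed between the tissues, and its part in the ratios of all cells was not tested beyond leaving these clusters out.

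Th1-like cells (692 brain, 541 spleen; brain cluster 7, spleen cluster 7) showed 4 of 9 genes past the rule, against 9.05% of genes higher and 13.4% lower. Zfp683, itself 1 of the 10 genes that led the brain cluster, stood at 78.3 and 16.7 CPM (4.7, 3.66 to 6.11) and Prdm1 at 46.2 and 27.2 CPM (1.7, 1.37 to 2.13). Tcf7, at 256 and 578 CPM (0.443), and Id3, at 3.39 and 23.6 CPM (0.144), were lower. Id2 (967 and 932 CPM), Bach2 (76.5 and 72.6 CPM), Runx3 (130 and 118 CPM), Lef1 (130 and 156 CPM) and Hopx (309 and 256 CPM) differed by less than 1.5-fold between the tissues.

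Th17-like cells (520 in brain clusters 4 and 5, 464 in spleen cluster 10) had another pattern in Bach2, Id2 and Hopx; 11.2% of genes were higher and 13.5% lower there. That the classes differ was not tested. Bach2 was higher in the brain, at 131 and 69.5 CPM (1.89, 1.64 to 2.18), while Id2, at 823 and 1247 CPM (0.66, 0.634 to 0.686), and Hopx, at 89.6 and 141 CPM (0.633, 0.562 to 0.713), were lower. These 3 calls rest on which brain clusters bear the name. Unnamed brain cluster 2 (464 cells) shares the leading genes Tmem176a, Tmem176b, Actn2, Il17re and Il23r with spleen cluster 10. With it added, the ratios were 1.46 for Bach2 (1.28 to 1.68), 0.726 for Id2 and 0.727 for Hopx, and none of the 3 met the rule (10.4% of genes were higher and 13.7% lower). Tcf7 (0.645, or 0.609 with that cluster) and Id3 (0.39, or 0.341) were lower either way. The brain Th17-like clusters were themselves unlike in Tcf7, with 555 CPM in the cluster led by Ccr6 and Il22 and 148 CPM in that led by Nrgn and Il17a. Zfp683 stayed below 10 CPM in the Th17-like cells of both tissues (3.89 and 2.7 CPM). Prdm1 was again higher in the brain (39.5 and 17.5 CPM, 2.26, 1.71 to 3.01; 1.86 with cluster 2). In regulatory-like cells (205 brain, 876 spleen), Id2 stood at 194 and 71.3 CPM (2.72), Prdm1 at 38.8 and 22.5 CPM (1.72) and Id3 at 47.5 and 102 CPM (0.467), where 9.25% of genes were higher and 7.97% lower; Bach2 was at 254 CPM in both.

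Id2 and Prdm1 had opposite directions in NKT-like and interferon response-like cells. In NKT-like cells (157 brain, 683 spleen) Id2, at 1368 and 2211 CPM (0.619, 0.591 to 0.648), and Prdm1, at 35.9 and 76.4 CPM (0.469, 0.348 to 0.622), were lower in the brain, where 7.45% of genes were higher and 14.3% lower. Zfp683 (162 and 146 CPM) and Hopx (320 and 276 CPM) did not meet the rule there. In interferon response-like cells (205 brain, 286 spleen) all 9 genes met the rule, in the directions of all cells, where 15.1% of genes were higher and 12.5% lower. Lef1 stood at 97.3 and 690 CPM (0.141, 0.122 to 0.163), Prdm1 at 46.6 and 5.34 CPM (8.72, 4.88 to 17) and Zfp683 at 39.1 and 2.05 CPM (19.1, 7.85 to 60.2). These clusters were named by interferon response genes and are not matched for helper type.

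Across the 14 brain and 18 spleen clusters each gene had its own range. Tcf7 was highest in naive-like clusters, at 990 CPM in the brain and up to 1088 CPM in the spleen. It was next highest in the brain in an unnamed cluster of 565 cells led by Spp1, Nrn1 and Slamf6, at 779 CPM, and lowest in the NKT-like clusters of both tissues, at 94.8 and 85.5 CPM. Id3 had its highest spleen levels in an unnamed cluster led by Egr1, Eomes and Sox4 (138 CPM), the follicular helper-like cluster (109 CPM) and the regulatory-like cluster (102 CPM). In the brain it did not exceed 47.5 CPM, in the regulatory-like cluster, and no follicular helper-like cluster was found there. Id2 was highest in the spleen's NKT-like cluster, at 2211 CPM, and in brain cluster 1, led by Ccl3, Ccl4 and Klrc1, at 1382 CPM.

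Hopx was highest in the cytotoxic-like clusters, at 556 CPM in the brain and 562 CPM in the spleen. In the spleen these cells also held the highest Runx3 level (189 CPM), while in the brain Runx3 was highest, at 197 CPM, in an unnamed cluster (98 cells) whose leading genes were Eomes, Gzmk and the CD8 chain gene Cd8a, and second, at 168 CPM, in the cytotoxic-like one. Prdm1 was highest in cytotoxic-like brain cells (115 CPM) and NKT-like spleen cells (76.4 CPM). Zfp683 was at 162 and 146 CPM in the NKT-like clusters, at 167 CPM in a spleen cluster of 61 cells led by Zbtb16, and at 0.594 CPM in the naive-like brain cluster. That spleen cluster, spleen cluster 9 and brain cluster 3 had few cells with a receptor (3.28%, 13.3% and 8.13%) and low depth (medians of 2642, 2570 and 3450 UMIs). Their Bach2 levels, 944, 1518 and 1100 CPM, were the 3 highest of the 32 clusters. Whether these barcodes hold whole cells was not tested. They held 18.5% of the brain's and 13.6% of the spleen's Bach2 UMIs. Without them all 9 genes kept their tissue call.

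**Figure D2:**
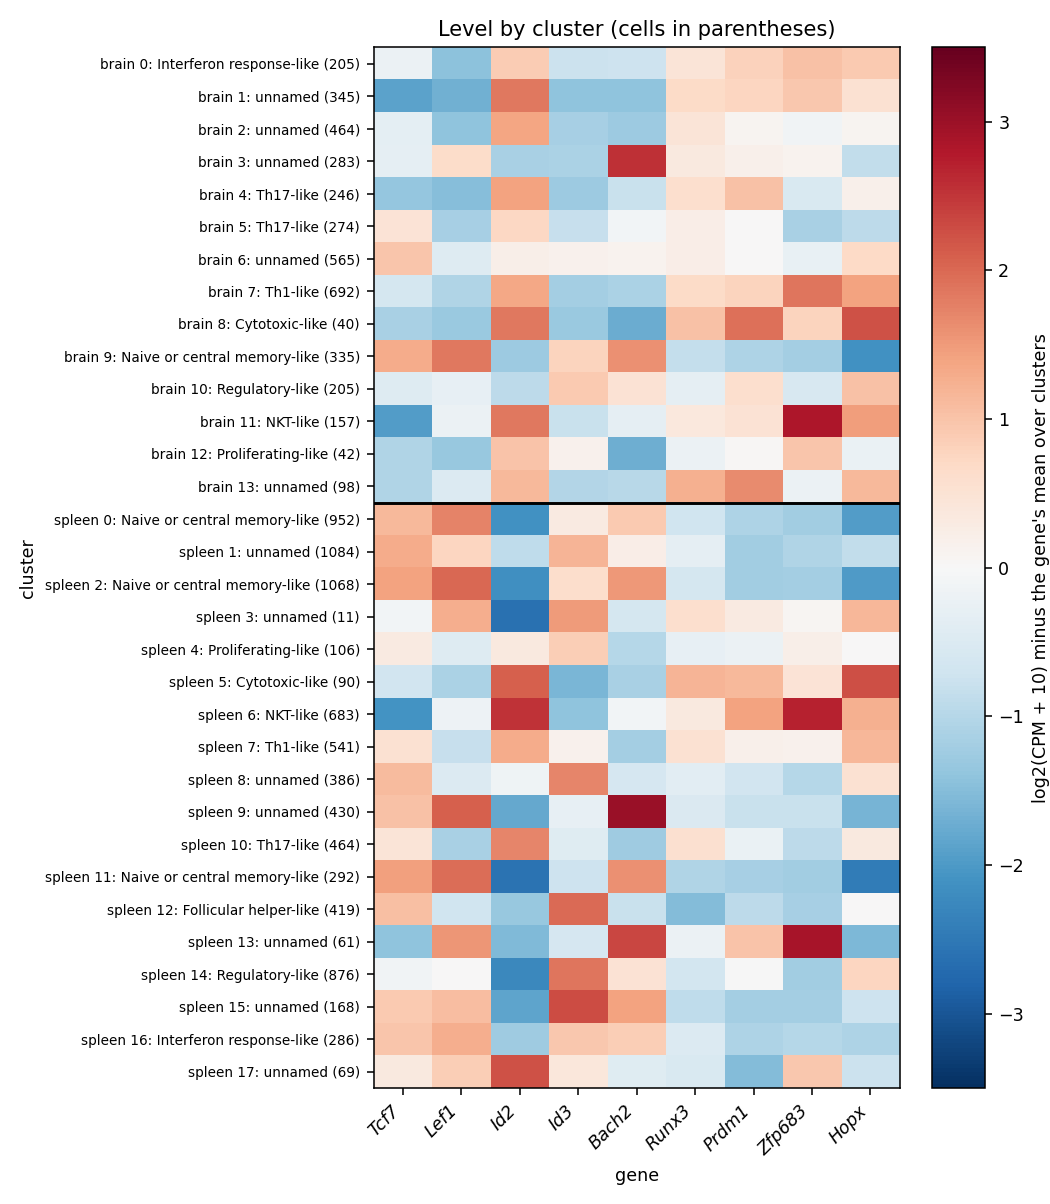
Level of each gene (columns) in each cluster (rows, brain above the line, cells in parentheses), as log2(CPM + 10) minus the gene's mean over the 32 clusters. Naive-like clusters are red for Tcf7, Lef1 and Bach2 and blue for Id2 and Hopx, and the NKT-like clusters, at 162 and 146 CPM, are red for Zfp683.

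Over the 32 clusters, Pearson correlations of log2(CPM + 10) described which genes ran together; clusters of 1 library share its depth and these genes helped to form them. Lef1 ran with Bach2 (0.83; 0.84 in the brain alone and 0.85 in the spleen alone). Runx3 ran with Prdm1 (0.81). Tcf7 ran opposite to Prdm1 (-0.84) and to Zfp683 (-0.79), and Id2 opposite to Lef1 (-0.76). The correlation of Tcf7 and Lef1 was 0.52. Over the 29 clusters left without the 3 that were poor in receptors, these values were, in the same order, 0.85, 0.84, -0.83, -0.78, -0.74 and 0.61. Of 6351 genes searched, the most alike included Nsg2 (0.88) and Il6ra (0.87) for Tcf7, and Pdk1 (0.91), Nedd4l (0.89) and Als2cl (0.86) for Lef1. For Bach2 they were Foxp1 (0.94), Nedd4l (0.91) and Patj (0.91). The chemokine receptor gene Cxcr6 (0.89) led for Id2, followed by Rnf166 (0.85) and Ccr2 (0.83). For Id3 they were Mapk11 (0.84), Rbm38 (0.82) and Mpp1 (0.80).

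Among the effector and residency genes, Runx3 was most like the chemokine gene Ccl5 (0.82), Fam204a (0.81) and Prdm1 (0.81). The genes most like Prdm1 included the granzyme inhibitor gene Serpinb9 (0.86) and Fam204a (0.84). Zfp683 was most like the ubiquitin ligase gene Nedd4 (0.92), Rcbtb2 (0.89) and Il12rb2 (0.85), which encodes a chain of the interleukin 12 receptor. Hopx was most like Efhd2 (0.88), the cytotoxic granule gene Nkg7 (0.86) and Unc119 (0.83).

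Detection in the same cell was compared with the product of the single shares, again at 3000 UMIs per cell, for the 36 pairs of each tissue. In the brain 9 pairs were found together at 1.25 times the product or more, and 12 at 0.8 times or less. The first count was 4 without naive-like clusters and 4 without thinning, so it depends on both. Lef1 and Bach2 (1.34), Tcf7 and Bach2 (1.28), Tcf7 and Id3 (1.39), Lef1 and Id3 (1.43) and Id3 and Bach2 (1.49) were 5 of the 9. The other 4 were Zfp683 and Hopx (1.57), Prdm1 and Hopx (1.3), Id2 and Zfp683 (1.29) and Runx3 and Zfp683 (1.27). All 12 low pairs joined 1 of Tcf7, Lef1, Id3 and Bach2 with 1 of Id2, Runx3, Prdm1, Zfp683 and Hopx, as did all 14 low pairs of the spleen. Examples from the brain are Bach2 and Prdm1 at 0.578 and Id2 and Id3 at 0.544 times the product. Id3 and Runx3 were at 0.492 on 15 of 3725 cells. A separate random thinning without the NKT receptor or NKT-like clusters gave 0.841 on 27 of 3566 cells. The subset held more such cells, so the random draw moves these small counts and the change cannot be assigned to the NKT cells. Id3 and Zfp683 shared 0 of 3725 brain cells in the main thinning, where the product gives 9.52 cells. A count of 0 allows a share of up to 0.0805% of cells detected with both at this depth. In the separate thinning they shared 2 of 3566 cells, where the product gives 7.16 (0.279). Without thinning, 29 of 3951 brain cells held both, where the product gives 52.3 (0.554).

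In the spleen 10 of 36 pairs reached 1.25 times the product and 14 lay at 0.8 times or below. The highest was Prdm1 with Zfp683, in 53 cells where the product gives 13 cells, a ratio of 4.09. Id2 with Zfp683 (2.4), Zfp683 with Hopx (2.38), Prdm1 with Hopx (1.8) and Id2 with Prdm1 (1.73) followed. In the separate thinning without NKT receptor and NKT-like cells, Prdm1 and Zfp683 shared 5 spleen cells where the product gives 1.45 (3.44). Id2 and Zfp683 were at 2.11 there. Zfp683 lay below the product with Tcf7 (0.316; 0.712 without the NKT cells) and with Id3 (0.123, 4 cells; 0.512, 3 cells, without them). Tcf7 and Lef1, both frequent, were near the product in the spleen (1.07) and somewhat above it in the brain (1.19). In the brain 27.2% of cells had none of Tcf7, Lef1, Id3 and Bach2 and 0.752% had all 4; in the spleen it was 7.9% and 2.86%.

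**Figure D3:**
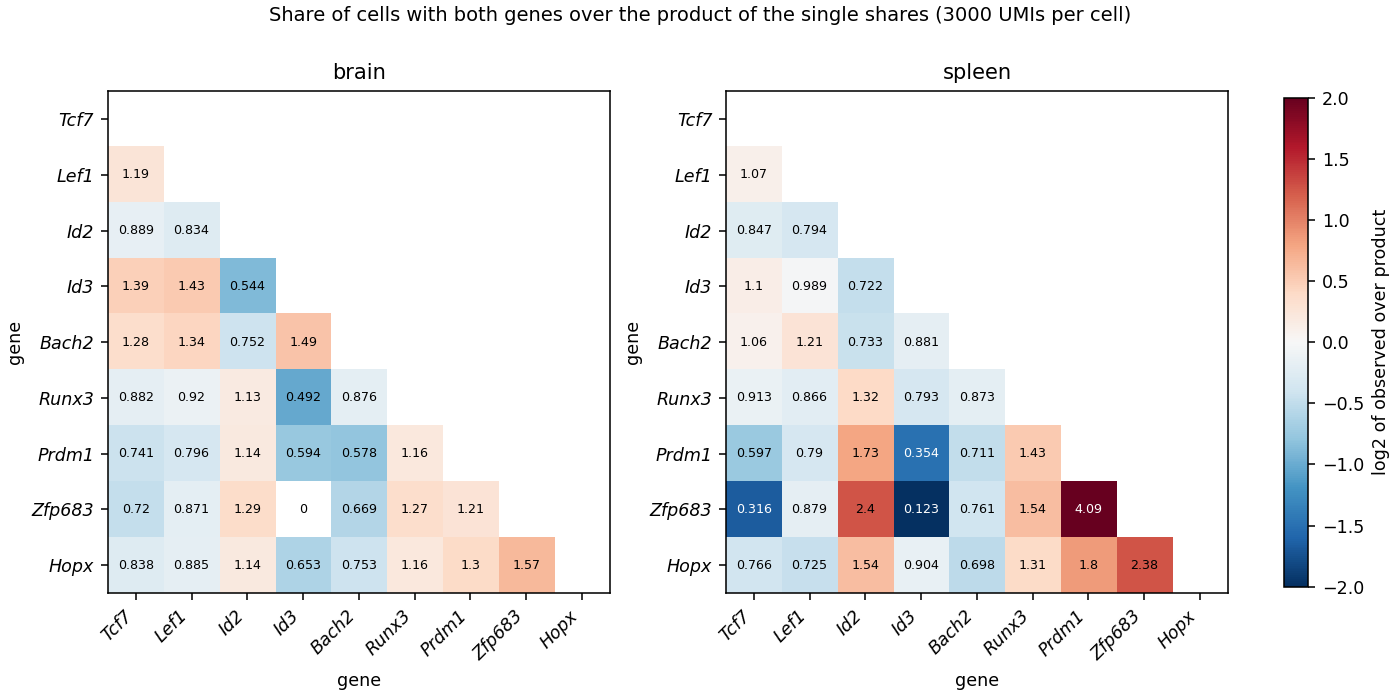
For each pair of genes, the share of thinned cells with both over the product of the single shares, printed in the cells and coloured on a log2 scale, for brain (left) and spleen (right); white with 0 means that no cell held both. Pairs within the group Tcf7, Lef1, Id3 and Bach2 reach 1.49 in the brain, and pairs with Zfp683 range from 0.123 to 4.09 in the spleen.

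Cells were then grouped by how many cells of their own tissue carried the same paired receptor, since expanded clonotypes (cells descended from 1 T cell) have divided. The brain had 1838 cells alone in their clonotype, 568 cells in 228 clonotypes of 2 to 4 cells and 725 cells in 64 clonotypes of 5 or more, the largest of 67 cells. The spleen had 5985, 536 in 235 clonotypes and 214 in 23 clonotypes, the largest of 60 cells. From the smallest to the largest size class, the naive-like share was 16.3%, 0.528% and 0% in the brain and 34.1%, 5.97% and 0% in the spleen. Ratios without those cells are given beside the gradients.

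In the brain, 6 of 9 genes met the rule between clonotypes of 5 or more cells and single cells, where 5.27% of 8409 genes were higher and 3.45% lower. Tcf7 stood at 521, 314 and 217 CPM in the 3 size classes, a ratio of largest to single of 0.416 (0.395 to 0.438). Lef1 stood at 297, 116 and 97.1 CPM (0.327), Bach2 at 207, 88 and 63.8 CPM (0.309) and Id3 at 19.4, 4.8 and 3.42 CPM (0.176). Most of the fall thus lay between single cells and clonotypes of 2 to 4 cells for Tcf7, Lef1, Bach2 and Id3. Id2 increased over the classes, at 608, 931 and 1077 CPM (1.77, 1.72 to 1.82), as did Prdm1, at 28.3, 41.4 and 44.2 CPM (1.56, 1.36 to 1.79). Runx3 (92.1, 116 and 125 CPM), Hopx (157, 179 and 218 CPM) and Zfp683 (30.9, 30.6 and 36.9 CPM) did not meet the rule. Without NKT receptor and NKT-like cells, Zfp683 (1.86, 1.59 to 2.18) and Hopx (1.53, 1.43 to 1.62) met it and 8 genes did in all, where 5.53% of genes were higher and 3.53% lower. Without naive-like cells the ratios were 0.5 for Tcf7, 0.612 for Lef1, 0.444 for Bach2, 0.228 for Id3 and 1.55 for Id2, and Prdm1, at 1.35, no longer met the rule, where 3.41% of genes were higher and 3.01% lower.

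In the spleen, 7 of 9 genes met the rule, where 13.6% of 8795 genes were higher and 5.73% lower and the median log2 ratio was 0.15. Lef1 stood at 577, 199 and 131 CPM (0.228, 0.197 to 0.262) and Bach2 at 285, 96.6 and 54.3 CPM (0.191, 0.152 to 0.237). Tcf7, at 738, 599 and 577 CPM (0.781), and Id3, at 49.6, 45.7 and 38.6 CPM (0.778), did not meet it. Id2 stood at 466, 645 and 1033 CPM (2.22), Hopx at 102, 183 and 265 CPM (2.6), Prdm1 at 15.3, 22.9 and 30.7 CPM (2.01) and Runx3 at 60.6, 84.1 and 95.5 CPM (1.57). Zfp683 went the other way, at 17.9, 6.24 and 9.16 CPM (0.511, 0.278 to 0.862). The NKT receptor was absent from the 5 or more class of both tissues. Without NKT receptor and NKT-like cells, spleen Zfp683 was at 2.37 CPM in single cells and 9.16 CPM in the largest class, a log2 ratio of 1.95 in place of -0.97 but below 10 CPM in both. Id2 was then at 4.36, Prdm1 at 3.6 and Hopx at 3.22 (15.3% of genes were higher and 5.77% lower). Without naive-like cells, Prdm1 (1.48) and Runx3 (1.39) no longer met the rule and Id3 (0.656, 0.497 to 0.849) did. Lef1 was then at 0.386, Bach2 at 0.269, Id2 at 1.57, Hopx at 1.86 and Zfp683 at 0.347 (8.92% of genes were higher and 5.41% lower).

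The largest spleen clonotype, 60 of the 214 cells, carried part of this gradient. Without it, 4 genes met the rule (Lef1 0.234, Bach2 0.154, Id2 1.94, Hopx 2.12; 15% of genes were higher and 5.5% lower), and Runx3 (1.25), Prdm1 (1.4) and Zfp683 (0.598) did not. Follicular helper-like cells made up 26.6% of the spleen cells in this class and 0% of the brain cells, where no cluster bore that name. Without them, spleen Tcf7 (0.546, 0.496 to 0.599) and Id3 (0.26, 0.142 to 0.438) met the rule as well, and Zfp683 (0.623) did not (13.4% of genes were higher and 7.43% lower).

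**Figure D4:**
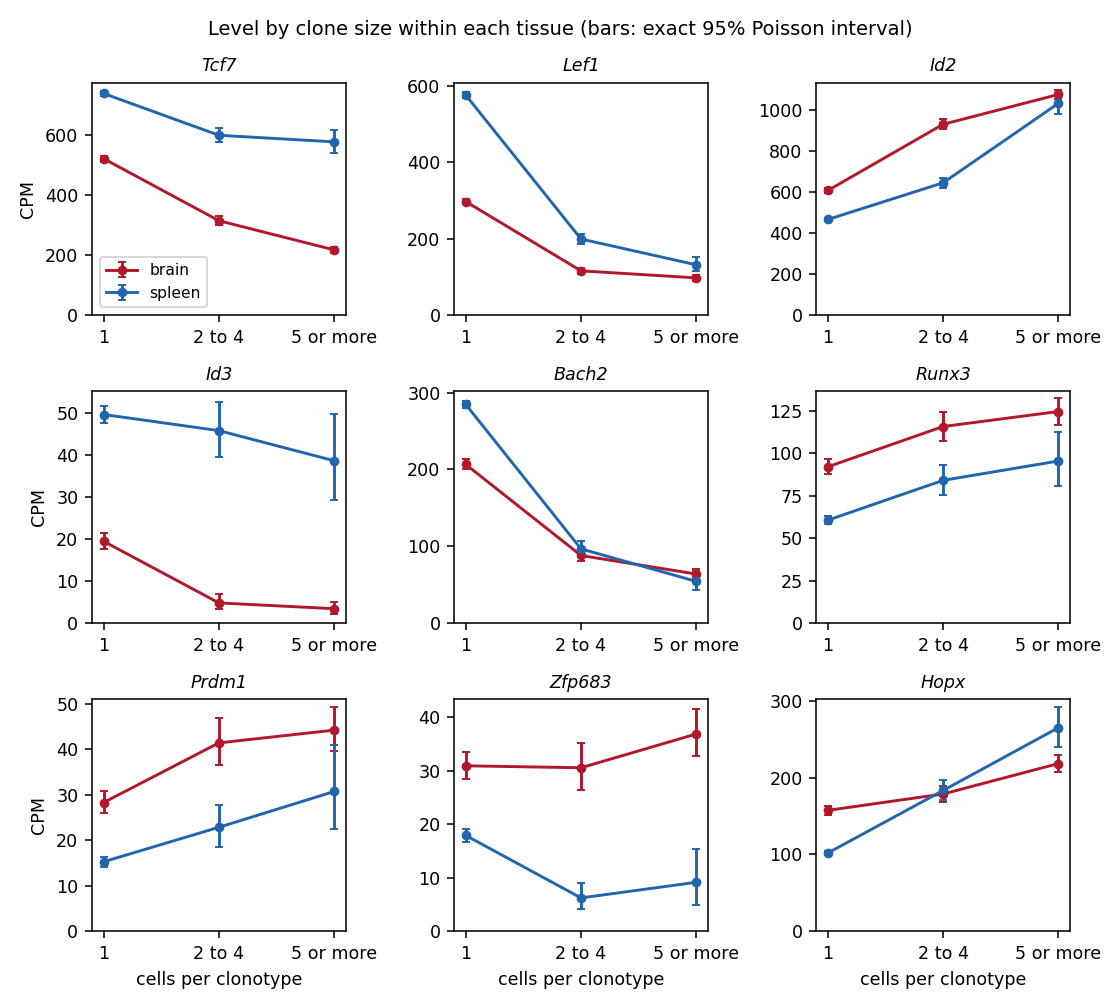
CPM of each gene in clonotypes of 1, 2 to 4 and 5 or more cells, in brain (red) and spleen (blue), with exact 95% Poisson intervals (counting error only). Lef1 and Bach2 fall in both tissues, Tcf7 goes from 521 to 217 CPM in the brain and from 738 to 577 CPM in the spleen, and Id2 ends at 1077 and 1033 CPM.

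Among cells alone in their clonotype, the brain to spleen ratio met the rule for Lef1 (0.515), Id3 (0.392), Runx3 (1.52), Prdm1 (1.85), Zfp683 (1.73) and Hopx (1.54), where 8.49% of genes were higher and 7.42% lower. In clonotypes of 5 or more cells 3 genes met it. Tcf7 (0.376, 0.346 to 0.408) and Id3 (0.0887, 0.0537 to 0.143) were lower in the brain and Zfp683 was higher (4.03, 2.36 to 7.46), where 8.52% of genes were higher and 16% lower. Id2 (1.04, 0.987 to 1.1), Bach2 (1.18, 0.93 to 1.5), Lef1 (0.739, 0.631 to 0.868), Runx3 (1.31), Prdm1 (1.44) and Hopx (0.824) did not meet the rule. Leaving out follicular helper-like cells took cells from the spleen only, since no brain cluster bore that name. Tcf7 was then at 0.539, Id3 at 0.276 and Zfp683 at 3.2, all past the rule (9.37% of genes were higher and 14.1% lower). Without the largest spleen clonotype Runx3 (1.63, 1.3 to 2.06) and Prdm1 (2.04, 1.35 to 3.23) met it too (8.65% of genes were higher and 17.2% lower).

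Single clonotypes showed how far members of 1 size class differ. Over the 10 largest brain clonotypes Tcf7 ran from 0 to 295 CPM (median 137), Id2 from 871 to 1408 CPM and Zfp683 from 0 to 133 CPM (median 35.4). Zfp683 was highest in a TRBV26 TRAV9-1 clonotype of 28 cells, 85.7% of them Th1-like. In the spleen, 3 of the 10 largest were mainly follicular helper-like. Their Tcf7 levels were 1815, 850 and 755 CPM and their Id2 levels 40, 96.2 and 41.2 CPM, while Id2 in the other 7 reached from 726 to 2020 CPM. Id3 was at 214, 48.1 and 27.5 CPM in the same 3 clonotypes.

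Clonotypes found in both tissues allow the same receptor to be compared across them. There were 188, with 569 brain and 411 spleen cells and 0 naive-like or NKT receptor cells. Summed over all of them, 4 of the 9 genes met the rule, where 7.84% of genes were higher and 13.3% lower. Tcf7 stood at 316 CPM in the brain and 579 CPM in the spleen (0.546, 0.512 to 0.583), Id3 at 5.68 and 27 CPM (0.21, 0.137 to 0.317), Prdm1 at 44.6 and 24.4 CPM (1.83, 1.41 to 2.39) and Zfp683 at 30.6 and 8.03 CPM (3.8, 2.5 to 6.03). The other 5 lay near 1: Lef1 0.833 (0.737 to 0.943), Id2 0.918 (0.88 to 0.959), Bach2 1.16 (0.988 to 1.36), Runx3 1.16 (1.01 to 1.33) and Hopx 1.01 (0.92 to 1.1). A clonotype contributes by its cells, so these sums weight different clonotypes in each tissue. Follicular helper-like cells were 12.4% of the spleen cells and 0% of the brain cells, and the same 4 genes met the rule without them (Tcf7 0.595, Id3 0.312, Prdm1 1.65, Zfp683 3.36; 8.51% of genes were higher and 12.3% lower). No brain cluster bore this name, so cells were left out of the spleen only. Unnamed brain cluster 6 (565 cells), whose leading genes include Slamf6 and Izumo1r of the follicular helper marker list, was not left out.

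In 17 clonotypes with 3 or more cells in each tissue (170 brain and 150 spleen cells), the tissues could be paired within a clonotype. Tcf7 ranged from 82.3 to 1410 CPM in the brain (median 258) and from 51.2 to 1020 CPM in the spleen (median 426). It was higher in the spleen in 13 of 17 clonotypes, with a median difference, brain minus spleen, of -0.74 on the log2(CPM + 10) scale. Bach2 ranged from 26.1 to 295 CPM in the brain (median 53) and from 0 to 114 CPM in the spleen (median 22.7). These levels rest on few counts, 119 UMIs in the brain and 57 in the spleen. Of the spleen UMIs 34 came from the largest clonotype, and 6 clonotypes had 0 in the spleen. Bach2 was higher in the brain in 14 of 17, with a median difference of 0.70, the opposite direction to that over all cells. These were the 2 of 9 genes whose median passed 1.5-fold, as it did for 8.73% of the 8696 genes measured upwards and 5.39% downwards; over all of them the median of this quantity was 0.00. Over the 4 that had 5 or more cells on both sides, the medians were -0.09 for Tcf7 and 0.11 for Bach2, so neither passed. Both ranges overlapped widely between the tissues.

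Id2 was higher in the spleen in 11 of the 17 (median difference -0.53) and Hopx in 12 (-0.35), again opposite to all cells. Runx3 was higher in the spleen in 11 and in the brain in 5 (-0.15), Prdm1 higher in the brain in 10 and in the spleen in 6 (0.36), and Lef1 higher in the brain in 8 and in the spleen in 9 (-0.05). None of these medians passed 1.5-fold. Zfp683 was higher in the brain in 6, higher in the spleen in 2 and listed at 0 in both tissues in 9. Summed over the 17, Zfp683 had 68 brain and 13 spleen UMIs (ratio 3.2, 1.75 to 6.32) and was the 1 gene past the rule, where 7.21% of genes were higher and 10.8% lower. Tcf7 was then at 0.764 (0.674 to 0.866) and Bach2 at 1.28 (0.924 to 1.78). Id3, with 11 and 10 UMIs, was too sparse to compare. Without the largest clonotype, the summed Bach2 ratio was 1.98 (1.23 to 3.3) and met the rule, as did Zfp683 at 2.43 (1.24 to 5.2), where 7.59% of genes were higher and 11% lower.

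That largest clonotype (TRBV26 with TRAV7-5, 57 brain and 60 spleen cells) had nearly level values for most of the genes. Tcf7 stood at 276 CPM in its brain cells and 315 CPM in its spleen cells, Lef1 at 132 and 122, Id2 at 1035 and 1387, Bach2 at 67.6 and 83.1, Runx3 at 139 and 149, Prdm1 at 50.3 and 56.2 and Hopx at 359 and 399 CPM. Zfp683 stood apart, at 36.4 CPM in the brain and 4.89 CPM in the spleen.

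**Figure D5:**
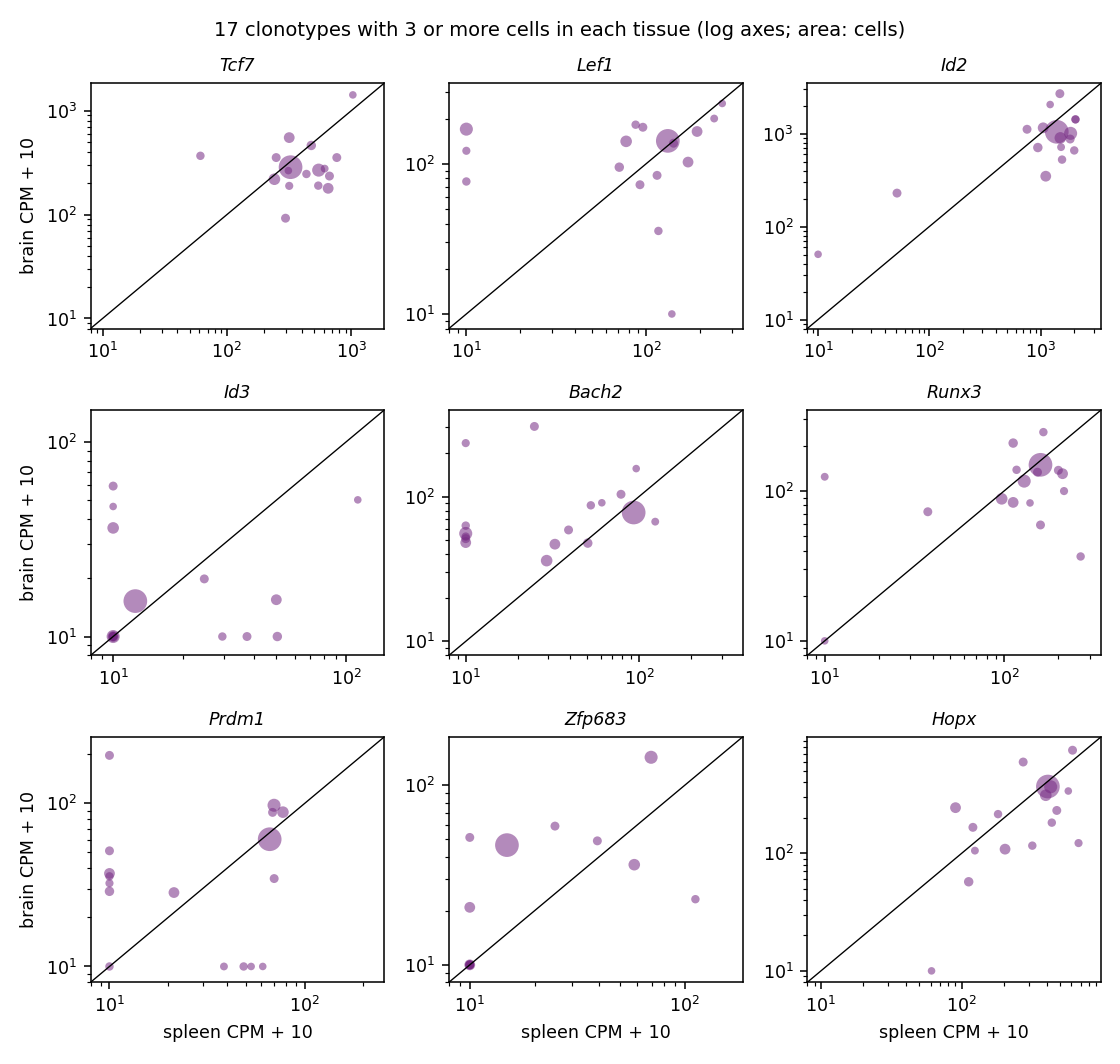
Brain CPM + 10 against spleen CPM + 10 (log axes) for 17 clonotypes with 3 or more cells in each tissue, 1 point per clonotype, area by its cells; the line marks equal levels. Tcf7 lies below the line in 13 clonotypes and Bach2 above it in 14.

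Lists of related genes place the 9 in their pathways. The 9.81% of genes higher and 8.62% lower in all cells give the scale for each count. The lists, like the 9 genes, were chosen with earlier results of these data known, so the counts are descriptions and not independent support. The E proteins that ID2 and ID3 bind, Tcf3 (54 and 52.8 CPM), Tcf4 (12.2 and 8.73) and Tcf12 (170 and 192), were all within 1.5-fold. Of 7 measured partners and targets of TCF1 and LEF1, 4 were lower in the brain and 0 higher (median log2 ratio -0.67): the coactivator genes Bcl9 (0.412) and Bcl9l (0.611), the Wnt target Axin2 (0.588) and beta-catenin, Ctnnb1 (0.631). Of 16 stem-like and central memory genes, 7 were lower and 0 higher (median -0.53), among them Cxcr5 (0.211), Slamf6 (0.339) and Ccr7 (0.367). Of 7 BACH2 partners and kin, 3 were higher, the small Maf genes Maff (13.6) and Mafk (2.44) and Irf4 (5.07), and Nfe2l2 was lower (0.624). In the RUNX family Runx2 was higher (104 and 32.6 CPM, 3.19), while Runx1 (1.03) and the shared partner Cbfb (0.983) were level.

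Of 9 measured kin and repressed genes of BLIMP1 and HOBIT, 3 were lower in the brain and 1 higher. Ccr7 and the exit receptor gene S1pr1 (134 and 261 CPM, 0.516) were among the lower ones, and Cd40lg was higher (1.93). The other 5 did not meet the rule, among them Klf2 (599 and 614 CPM, 0.976) and Il2 (1.39). The median log2 ratio of this list was 0.09. Of 10 measured residency genes 6 were higher, 0 lower and 4 neither (median 0.99), led by Rgs1 (10.4), Cd69 (4.66), Itga1 (4.65) and Rbpj (3.55). Itgae, also on that list, stayed below 10 CPM in both tissues. Of 10 effector transcription factor genes 6 were higher and 0 lower (median 1.14), led by Bhlhe40 (735 and 46.9 CPM, 15.7), Klf6 (6.88), Zeb2 (3.79) and Rora (3.7). Early-response and dissociation stress genes moved with the tissue as well: 15 of 16 were higher in the brain and 0 lower (median 3.33), among them Atf3 (368), Fosb (42.7), Fos (22.3) and Nr4a2 (18.1). Their part in the ratios of the 9 genes was not tested. With those genes left out of the totals, all 9 kept their call. That step rescales every ratio by the same factor, so it cannot show their part. Astrocyte and neuron markers summed to at most 0.85 CPM. Other lists were higher in both tissues. Microglia markers summed to 1733 CPM in the brain and 1332 CPM in the spleen, and oligodendrocyte markers to 270 and 298 CPM. Endothelial markers summed to 136 and 254 CPM and myeloid markers to 128 and 94.2 CPM. Whether T cells or other cells gave these counts was not tested. Cd8a and Cd8b1 summed to 30.1 and 15.8 CPM.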

How the data were processed

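Sorted brain and spleen CD4 T cells of 1 RNA and 1 TCR library each were analysed. The deposited RNA values are raw UMI counts per gene and barcode, as the authors' filtered Cell Ranger matrices; Cell Ranger 9.0.0 and the builds GRCm38 (mm10) and GRCm39 (mm39) are named in the submitters' processing notes, without saying which library each build served. Receptor contigs carry the authors' deposited UMI counts. Barcodes were kept with at least 500 genes, 1000 UMIs and at most 10% mitochondrial UMIs. Doublets were treated by dropping barcodes that carried over 1 productive TRB or over 2 productive TRA chains (179 brain, 315 spleen); B-like clusters (168 spleen cells) and cells with 5 or more myeloid UMIs (13 and 5) were dropped too. The files held 4277 barcodes with 44386447 UMIs (brain) and 8707 with 65191435 (spleen).

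Counts were summed per group and divided by the group total (CPM). A gene was called at a ratio of 1.5 or more either way with an exact conditional binomial (Clopper-Pearson) 95% interval excluding 1, using genes that reached 10 CPM in the higher group; 3 counts correspond to 0.0729 CPM (brain) and 0.0497 CPM (spleen). A clonotype is the same V genes and CDR3 nucleotides of both chains. Clusters (scanpy 1.11.5, Leiden, 2000 variable genes, 30 components, 15 neighbours, resolution 0.8) were made per library and named from markers; thresholds for naming were set after the clusters were seen. In simulated counts for 8326 genes of the brain to spleen comparison, the rule recovered 100 of 100 genes raised 3-fold, 99 of 100 lowered 3-fold, and called 0 of 8126 unchanged. For brain clone size, with 8149 genes, it recovered 100 and 98 of 100 and called 2 of 7949. These counts were Poisson draws from the pooled profile of both groups, with no variation between cells, clonotypes, animals or libraries. High recovery of 3-fold changes at a 1.5-fold limit was thus built in. The simulation checks the calculation and gives no error rate for the calls in the data. The named genes are the 9 members, up to 4 genes per list with the largest ratio, and the 3 genes most correlated with each member over clusters. Klf2, Il2 and Itgae are named from the lists in addition to this rule. A few genes that this rule picks are not reported here. The members and lists were chosen with earlier results of these data known. Alternatives covered scaling (edgeR 4.0.16 TMM factors only, no edgeR test), cell filters, thinning, clonotype definitions and cells left out. All intervals cover counting error only.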

Additional observations from a re-analysis of the deposited data

Results flagged for a closer look

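The brain to spleen ratio of 4 genes lay past 1.5-fold in opposite directions in different cell classes; the difference between classes was not tested. Id2 was at 4.58 in interferon response-like cells and 0.619 in NKT-like cells, and Prdm1 at 8.72 and 0.469 in the same classes. Bach2 was at 1.89 in Th17-like cells and 0.314 in interferon response-like cells; with unnamed brain cluster 2 counted as Th17-like it was 1.46, no longer past 1.5-fold. Hopx was at 4.57 in interferon response-like cells and 0.633 in Th17-like cells (0.727 with that cluster). The interferon response-like clusters are not matched for helper type: Lef1 stood at 97.3 CPM in the brain cluster and 690 CPM in the spleen cluster.

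Zfp683 had a ratio of clonotypes of 5 or more cells to single cells of 1.19 in the brain and 0.511 in the spleen, also on opposite sides of 1, and this difference was not tested. Without NKT receptor and NKT-like cells the ratios were 1.86 and 3.86, on the same side of 1. The spleen ratio rests on 14 UMIs in the largest class and on levels below 10 CPM in both classes, so it was not called. Without naive-like clusters the ratios were 1.01 (0.87 to 1.16) in the brain and 0.347 (0.189 to 0.585) in the spleen.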

How the results depend on the processing

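No paired analysis was possible because each tissue has 1 RNA library, so no replicates pair across tissues; clonotypes pair cells, not samples. All 9 genes kept a brain to spleen call under TMM factors, median of ratios size factors, totals without stress genes, no barcode filter, a stricter one, several receptors kept, paired cells only, no minimum CPM, and without Foxp3, NKT-like, receptor-poor or Cd8a-led clusters (the last 2 chosen after seeing the data). It was 6 of 9 without naive-like clusters and 8 of 9 with cells weighted equally or thinned, since Bach2 (log2 ratios of -0.52 and -0.47) missed the limit. Counts changed by more than 1.5 times in these cases. The spleen clone size count went from 7 to 4 without the clonotype of rank 1. Within shared clonotypes, the count of 2 became 1 at pseudocount 50 CPM, 1 with at least 5 cells per tissue (Hopx, -0.63, and neither Tcf7 nor Bach2), 1 with summed counts and 4 with summed counts and at least 1 cell (chosen after seeing the data). In the brain, 9 co-detected pairs became 4 without thinning and 4 without naive-like clusters. Directions turned in 2 cases: spleen Zfp683 over clone size, to a log2 ratio of 1.95 without TRAV11-TRAJ18 and NKT-like cells, and brain Id3 with Hopx at 2000 UMIs, to a log2 of observed over product of 0.02. The cause was not tested. Depth limits Id3, Prdm1 and Zfp683 in single clonotypes most.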
